A study of Mus musculus with 9 samples.

Results

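Tnf, Il6, Il10, Il15, Lif, Osm, Csf1, Csf2 and Csf3 encode secreted cytokines and growth factors of activated macrophages, and their mRNA levels were read from RNA-seq of mouse intraperitoneal macrophages. The 9 genes were chosen by symbol as a family of secreted factors. All 9 had a row among the 15343 in the table, and all 9 were among the 13895 genes kept for testing, those that reached a normalized count of 10 or more in 3 or more libraries. A normalized count is the number of reads of a gene divided by 1 size factor for its library.

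All 9 libraries came from cells marked wild type in their titles, of a strain written CF7B1/6, and all were stimulated with lipopolysaccharide (LPS), a bacterial cell wall component, at 100 ng/ml for 6 h. The LPS group (LPS 1, 2 and 3) has no pretreatment or vehicle in its labels. The DHA group (DHA 1, 2 and 3) received 100 µM docosahexaenoic acid (an omega-3 fatty acid) during 1 h before LPS, and the cpdA group (cpdA 1, 2 and 3) received 10 µM cpdA for 1 h before LPS. CpdA is described in the labels as an agonist of Gpr120, a receptor for long-chain fatty acids, and the question addressed is how each pretreatment bears on the response to LPS. No unstimulated libraries were analysed here, so no value below says how far LPS itself raised a gene. Both comparisons with LPS use the same 3 LPS libraries. The labels do not say whether libraries of a group came from separate animals or cultures, so p-values measure only the spread between these samples, which may be technical.

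LPS is sensed by Toll-like receptor 4, and signalling through NF-kappa B, MAP kinases and interferon regulatory factors then switches on cytokine genes in macrophages. Tumour necrosis factor (Tnf) acts on nearby cells through TNF receptors. Il6, Lif and Osm act through receptors that share the gp130 subunit (Il6st) and activate Stat3, and Il10 also acts through Stat3 to restrain macrophages. Il15 sustains natural killer and memory T cells, and the colony-stimulating factors Csf1, Csf2 and Csf3 drive the survival and growth of macrophages, granulocytes and macrophages, and neutrophils.

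RefSeq promoter sequences were at hand for 5 of the 9 genes (Tnf, Il6, Lif, Csf1 and Csf2; build GRCm38.p6). The 250 bases before the start are shown for Tnf, whose mRNA was the most abundant, for Il6, with the largest ratio between libraries, for Lif, the member with the largest positive difference with DHA, and for Csf1, the member with the tightest difference from LPS. The sequences are written 5′ to 3′ on the gene's strand and end 1 base before the start of the gene, and capitals mark a match to the kappa B consensus bound by NF-kappa B. The windows lie at chr17:35202008-35202257 (Tnf, minus strand), chr5:30012864-30013113 (Il6, plus strand), chr11:4257318-4257567 (Lif, plus strand) and chr3:107760470-107760719 (Csf1, minus strand).
Tnf: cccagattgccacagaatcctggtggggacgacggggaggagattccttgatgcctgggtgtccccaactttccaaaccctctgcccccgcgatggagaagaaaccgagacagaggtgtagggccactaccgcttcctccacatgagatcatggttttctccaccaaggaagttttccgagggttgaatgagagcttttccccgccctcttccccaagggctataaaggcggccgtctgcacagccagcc
Il6: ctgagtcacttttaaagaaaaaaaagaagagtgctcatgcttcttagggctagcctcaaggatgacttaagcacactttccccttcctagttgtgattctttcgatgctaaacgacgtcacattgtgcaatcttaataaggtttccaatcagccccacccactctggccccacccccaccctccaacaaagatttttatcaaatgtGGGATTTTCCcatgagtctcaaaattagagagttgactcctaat
Lif: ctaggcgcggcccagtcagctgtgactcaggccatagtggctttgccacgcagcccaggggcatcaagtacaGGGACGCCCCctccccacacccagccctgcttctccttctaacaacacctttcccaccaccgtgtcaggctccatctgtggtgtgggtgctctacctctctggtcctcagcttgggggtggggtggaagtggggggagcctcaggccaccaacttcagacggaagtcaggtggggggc
Csf1: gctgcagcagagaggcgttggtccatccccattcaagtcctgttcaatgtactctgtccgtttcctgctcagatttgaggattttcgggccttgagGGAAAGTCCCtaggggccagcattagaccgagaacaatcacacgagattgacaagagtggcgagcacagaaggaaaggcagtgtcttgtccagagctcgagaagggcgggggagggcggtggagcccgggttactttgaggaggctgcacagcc
Of these 4 windows, those of Il6, Lif and Csf1 held the consensus. The match was GGGATTTTCC from 44 to 35 bases before the start in Il6, GGGACGCCCC from 178 to 169 bases before it in Lif, and GGAAAGTCCC from 154 to 145 bases before it in Csf1. The window of Tnf held no match to these letters. Both strands were searched, and 7.25% of 32851 RefSeq promoters held the consensus in a window of 250 bases. The AP-1 letters TGANTCA, which 6.75% of promoters held, were found in the Il6 and Lif windows, and the C/EBP letters TTNCNNAA, which 36.8% held, in those of Tnf and Il6. No matches overlapped, and neither the STAT letters TTCNNNGAA (7.02% of promoters) nor the IRF consensus (2.98%) were found in the 4 windows. A match is a description of the sequence and shows no binding.

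Depth was 13797079 to 37572822 reads per library. CpdA 3 and LPS 3 stood apart from the other 7 libraries: on principal components of all kept genes, cpdA 3 lay farthest out on the first (40.5% of variance) and LPS 3 on the second (28.8%). The macrophage identity of the cells was checked on 10 markers, all of them kept. Cd68, a lysosomal glycoprotein of macrophages, ranged from 33306 to 38110 normalized counts. The summed level of the 10 markers was 325803 in LPS 3 and 365000 in cpdA 3 against 552217 to 577870 in the others. Lyz2 (lysozyme) made up most of that sum, at 210386 in LPS 3 and 269048 in cpdA 3 against 447053 to 459826 elsewhere. The other markers did not move as 1 set. In LPS 3, Adgre1 and Itgam were at their lowest, while Mertk, Fcgr1 and Icam2 were at their highest. In cpdA 3, Cd14, Mertk, Fcgr1 and Timd4 were at their lowest and Gata6 at its highest. Of the macrophage markers, Fcgr1 (the high-affinity IgG receptor) moved with the groups, at 4159 to 10269 with LPS against 957.1 to 2748 in all pretreated libraries. Mertk did so too, at 6519 to 10615 with LPS against 4301 to 6284 in the pretreated libraries. In the limma fit without LPS 3 and cpdA 3 described below, Fcgr1 and Timd4 fell with both pretreatments and Gata6 rose with DHA. Of 10 T and NK cell markers 3 had a row, and their sum was 297.8 to 423.6 with LPS against 74.2 to 205.8 in all pretreated libraries. Lck, a kinase of T cells, made up most of that sum and fell with DHA in the same fit, while Cd3d, a CD3 chain gene, was near 0, at 2.7 to 11.5. Of 10 neutrophil markers 6 had a row, and their sum was 744.9 in LPS 3 and 914.4 in cpdA 3 against 2802 to 4088 elsewhere. Mmp9 made up most of that sum. S100a8, Mmp8, Mmp9 and Camp were lowest in LPS 3 and cpdA 3, and Ltf was near 0 throughout. Cxcr2 was highest in LPS 3, at 153.5 against 69.7 to 98.9 elsewhere. The sum of 12 mesothelial, fibroblast and endothelial markers was 49018 in LPS 3 against 28333 to 37021 elsewhere. Its members differed. Pdgfra was 7062 in LPS 3 and 8132 in cpdA 3 against 3535 to 4625 elsewhere. Dcn was 8705.5 in LPS 3 and 6328 in cpdA 3 against 3638 to 4204 elsewhere. Col1a1 and Cdh5 were lowest in cpdA 3, and Cdh5, Msln and Krt8 were not highest in LPS 3. The sum of 8 B cell markers ranged from 1175 to 1632. Of 10 mast cell, basophil and eosinophil markers 6 had a row, with a sum of 402.1 in LPS 3 and 444.4 in cpdA 3 against 226.9 to 334.2 elsewhere. Of these, Cpa3, Tpsb2 and Cma1 were highest in LPS 3 and cpdA 3. Kit went the other way, at 19.4 in LPS 3 and 32.6 in cpdA 3 against 60.1 to 130.4 elsewhere. The nuclear RNAs Malat1 and Neat1 summed to 50855 in cpdA 3 against 9529 to 19104 elsewhere. Neat1 made up most of this, at 46514 in cpdA 3 against 7382 to 15888 elsewhere. Malat1 was 4342 in cpdA 3, close to its 3964 in cpdA 2. Several of these values move with the groups or stand apart in LPS 3, in cpdA 3 or in both, while Cd68 and the B cell sum do neither. The part of these values in the results was not tested. In bulk RNA, fewer cells of a type and less RNA per cell cannot be told apart.

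Of the 9 genes 3, Il10, Il15 and Csf1, were lower in all 6 pretreated libraries than in all 3 LPS libraries, a pattern that 9.28% of kept genes showed. Csf1 had the smallest spread of these and stood at about 70% of its LPS level with either pretreatment. Tnf, Il6, Lif, Osm, Csf2 and Csf3 overlapped between groups in every comparison. With all 9 libraries, none of the 9 genes passed an adjusted p of 0.05 in limma with Benjamini-Hochberg adjustment, where 0.0072% of the kept genes (1 gene) did so in each comparison with LPS and none between cpdA and DHA. The plot of the 9 genes by library shows these values.

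**Figure D1:**
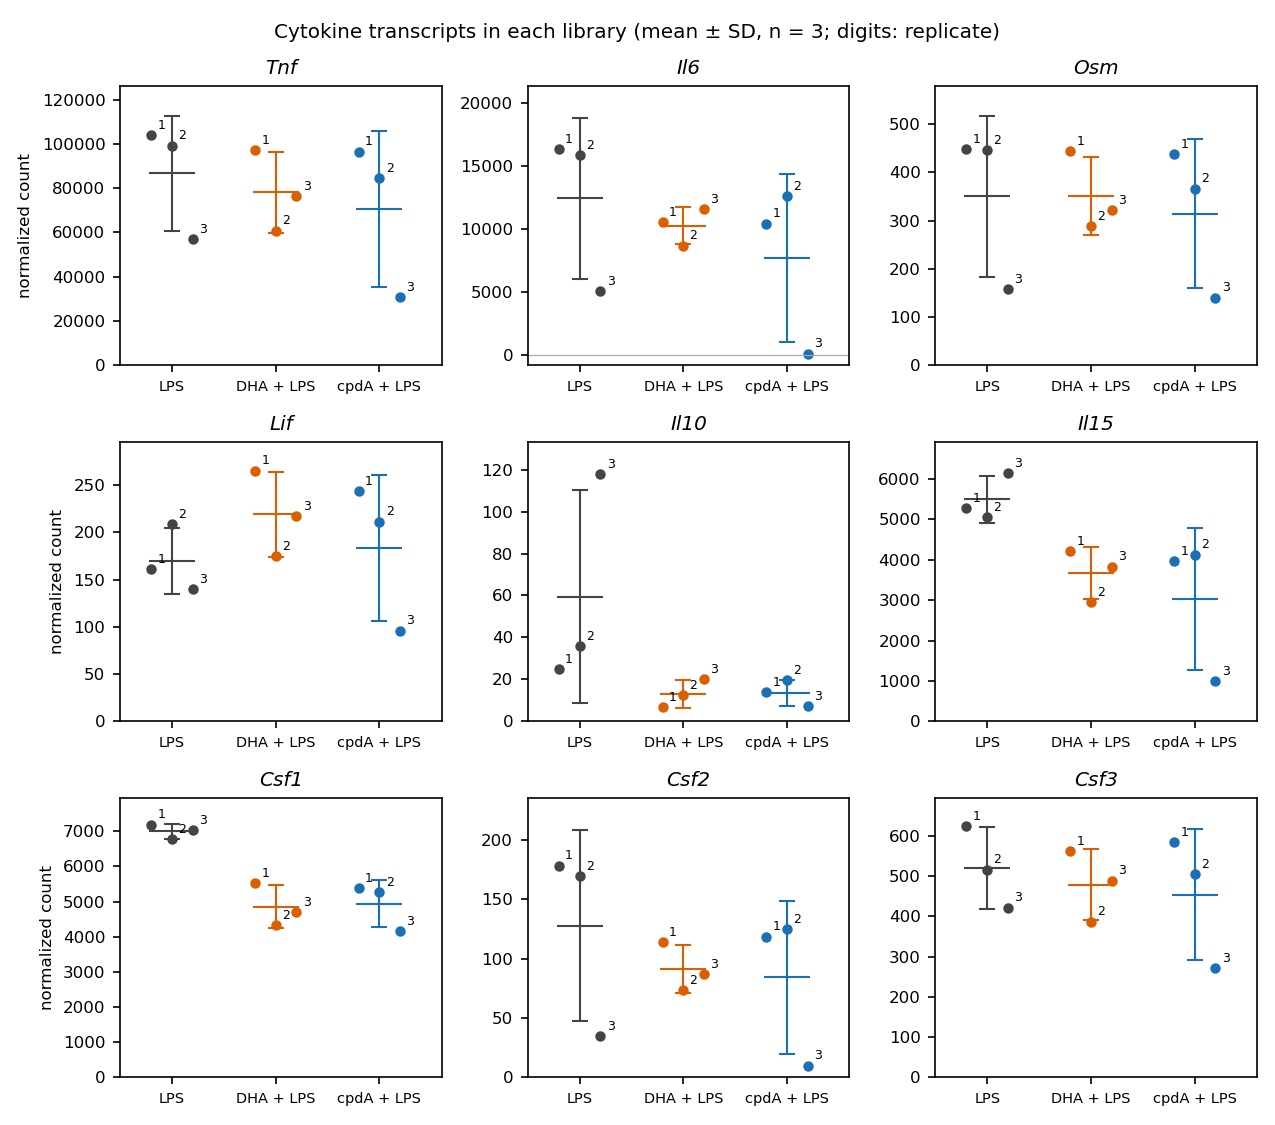
Normalized counts (y axis, linear, a separate scale for each gene) of the 9 cytokine genes in the LPS, DHA + LPS and cpdA + LPS groups (x axis); points are libraries marked by their replicate number, and bars give the mean ± SD of 3 libraries. Il10, Il15 and Csf1 have all 6 pretreated libraries below the LPS libraries, and cpdA 3 is the lowest cpdA library for all 9 genes.

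Per kilobase of exon (GENCODE M21 lengths), Tnf was the most abundant of the 9 mRNAs in the LPS group, at 52908 ± 15839 normalized counts per kb (SD, n = 3), and Il6 came next at 5112 ± 2630. Il15 followed at 2426 ± 255, a level that overlapped the spread of Il6, and Csf1 at 1325 ± 38.9. The other 5 were lower on the same scale: Csf3 at 369 ± 72.0, Csf2 at 159 ± 100, Osm at 154 ± 73.5, Il10 at 45.4 ± 38.7 and Lif at 39.1 ± 8.06. Csf2 did not differ from Osm, nor Il10 from Lif, beyond their spread. The order of the first 4 was the same with DHA and with cpdA, where Il6 (3176 ± 2743) spread across the levels of Il15 and Csf1.

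Tnf had normalized counts of 104072, 99204 and 56873 in LPS 1 to 3, of 97130.3, 60863 and 76411 in DHA 1 to 3, and of 96546, 84474 and 30769.8 in cpdA 1 to 3. The groups overlapped: the libraries numbered 1 lay between 96546 and 104072 in the 3 groups, and LPS 3 lay below all DHA libraries. The means were 86716 ± 25959 with LPS, 78135 ± 18195 with DHA and 70597 ± 35015 with cpdA (SD, n = 3 each). On the log2(value + 1) scale the difference from LPS was -0.13 (SE 0.43) with DHA, adjusted p = 0.917, and -0.41 (SE 0.43) with cpdA, adjusted p = 0.697, both by limma. The 95% interval with DHA ran from -1.11 to 0.86, which holds both falls and rises.

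Il6, the ligand of Il6ra and gp130, had the largest ratio between its highest and lowest library of the 9 members. Its normalized counts were 16329, 15859.8 and 5043 in LPS 1 to 3, then 10542, 8666 and 11563 in DHA 1 to 3, and 10418, 12593 and 125.9 in cpdA 1 to 3. All DHA libraries lay below LPS 1 and 2 and above LPS 3. The level in cpdA 3 was 1.1% of the mean of cpdA 1 and 2, and only 12 of the 13895 kept genes had a lower share. The means were 12411 ± 6385, 10257 ± 1469 and 7712 ± 6660 with LPS, DHA and cpdA (SD, n = 3 each). Limma gave a log2 difference from LPS of -0.10 (SE 1.498, adjusted p = 0.982) with DHA and -2.10 (SE 1.498, adjusted p = 0.543) with cpdA, and the second was 0.07 without cpdA 3.

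Lif and Osm, the other 2 ligands of gp130 among the members, are neighbours on chromosome 11 in RefSeq. Lif, which maintains stem cells in culture, had normalized counts of 160.9, 208.6 and 140.2 in LPS 1 to 3, of 265.3, 174.8 and 217.0 in DHA 1 to 3, and of 243.4, 211.5 and 96.0 in cpdA 1 to 3. It was the member with the largest positive difference from LPS, 0.36 (SE 0.33) with DHA on the log2 scale, and the groups overlapped (limma adjusted p = 0.637). With cpdA its log2 difference was 0.02 (SE 0.33, limma adjusted p = 0.983). Osm, oncostatin M, had normalized counts of 447.8, 446.0 and 157.6 in LPS 1 to 3, of 443.6, 288.7 and 321.6 in DHA 1 to 3, and of 438.0, 366.5 and 140.3 in cpdA 1 to 3. Its lowest values were in the libraries numbered 3 of the LPS and cpdA groups, and its log2 differences from LPS were 0.13 (SE 0.50) with DHA and -0.16 (SE 0.50) with cpdA, with limma adjusted p of 0.928 and 0.914.

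Il10, the anti-inflammatory member, was scarce. Its normalized counts were 25, 35.7 and 117.7 in LPS 1 to 3 (23, 31 and 115 reads), 6.7, 12.4 and 20.0 in DHA 1 to 3 (3, 11 and 18 reads), and 13.8, 19.7 and 7.2 in cpdA 1 to 3 (13, 24 and 8 reads). All 6 pretreated libraries lay below all 3 LPS libraries, with LPS 3 far above the other 2. The nearest values were close: the 95% Poisson interval, which covers counting error only, was 15.8 to 37.5 for LPS 1, 11.9 to 31.7 for DHA 3 and 12.6 to 29.3 for cpdA 2. The mean with DHA was 21.9% of the LPS mean of 59.5 ± 50.7 and that with cpdA 22.8% (SD, n = 3). The log2 difference was -1.90 (SE 0.62) with DHA and -1.83 (SE 0.62) with cpdA, with limma adjusted p of 0.273 and 0.252, and it was -1.26 and -0.82 without LPS 3 and cpdA 3.

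Il15 had normalized counts of 5275, 5044 and 6138 in LPS 1 to 3, 4207, 2949 and 3824 in DHA 1 to 3, and 3967, 4124 and 1002 in cpdA 1 to 3. All pretreated libraries were below all LPS libraries, and LPS 3 held the highest and cpdA 3 the lowest value of the 9. The means were 5486 ± 577 with LPS, 3659.7 ± 645 with DHA and 3031 ± 1759 with cpdA (SD, n = 3 each). The log2 difference from LPS was -0.59 (SE 0.47, limma adjusted p = 0.578) with DHA and -1.10 (SE 0.47, limma adjusted p = 0.331) with cpdA. Without cpdA 3 the second was -0.43.

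Among the colony-stimulating factors, Csf1 had normalized counts of 7188, 6779 and 7027 in LPS 1 to 3, 5526, 4330.0 and 4703 in DHA 1 to 3, and 5381, 5271 and 4169 in cpdA 1 to 3. The highest pretreated library, DHA 1, was below the lowest LPS library. The means were 6998 ± 206 with LPS, 4853 ± 612 with DHA and 4940.2 ± 670 with cpdA (SD, n = 3 each), or 69.3% and 70.6% of the LPS mean. The log2 difference was -0.54 (SE 0.13, 95% interval -0.84 to -0.23) with DHA and -0.51 (SE 0.13, 95% interval -0.81 to -0.21) with cpdA, with limma adjusted p of 0.226 and 0.224. Unlike those of Il6 and Il15, the value of Csf1 in cpdA 3 was near the other 2, at 78.3% of their mean, and LPS 3 was at 100.6%.

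Csf2, also called GM-CSF, had normalized counts of 178.2, 169.4 and 34.8 in LPS 1 to 3, 113.7, 73.3 and 86.8 in DHA 1 to 3, and 118.5, 124.6 and 10.0 in cpdA 1 to 3. Like Il6, it was lower in LPS 3 than in every DHA library and lowest in cpdA 3, which rested on 11 reads. Its log2 differences from LPS were -0.18 (SE 0.94) with DHA and -0.91 (SE 0.94) with cpdA, with limma adjusted p of 0.945 and 0.689. Csf3, also called G-CSF, had normalized counts of 625.0, 516.3 and 421.6 in LPS 1 to 3, 561.8, 386.8 and 488.6 in DHA 1 to 3, and 585.1, 504.3 and 271.6 in cpdA 1 to 3, and the 3 groups overlapped. Its log2 differences were -0.12 (SE 0.28) and -0.25 (SE 0.28), with limma adjusted p of 0.874 and 0.712.

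By group means the order was LPS, DHA, cpdA from high to low for Tnf, Il6, Il15, Csf2 and Csf3, and LPS, cpdA, DHA for Il10 and Csf1. Lif had the order DHA, cpdA, LPS, and Osm the order DHA, LPS, cpdA. Only the step from LPS down to the next group in Il10, Il15 and Csf1 had no overlap between libraries. An exact 2-sided permutation test of 3 libraries against 3 cannot go below 0.1, so it adds nothing to this separation. Counted per comparison, 3 of the 9 genes had all DHA libraries below all LPS libraries, against 15% of kept genes, and 3 of 9 had all cpdA libraries below them, against 12.2%. No member had its pretreated libraries all above LPS, against 13% of kept genes with DHA and 10.7% with cpdA. The median log2 difference of the 9 genes was -0.13 with DHA and -0.51 with cpdA, with 7 and 8 of them negative, while the medians over all kept genes were 0.00 in both and 50.2% and 50.6% of genes were negative. The medians of the 9 without LPS 3 and cpdA 3 were -0.51 with DHA and -0.35 with cpdA, with 8 negative in each, so the order of the 2 compounds turned. Under quantile normalization the differences of Tnf and Il6 with DHA turned to 0.03 and 0.04.

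The absence of calls depended on the tool and on LPS 3 and cpdA 3. At an unadjusted p under 0.05, limma with all 9 libraries had 2 members with DHA (Il10 and Csf1), 3 with cpdA (Il10, Il15 and Csf1) and none for cpdA against DHA, where 14.2%, 14.6% and 1% of all kept genes had one. EdgeR's quasi-likelihood test on recovered reads called none of the 9, against 0.0216% of kept genes with DHA and 0.0072% with cpdA. DESeq2 on the same reads called Csf1 lower in both, with adjusted p of 0.0172 for DHA and 0.0214 for cpdA, where it called 1.09% and 1.65% of its tested genes lower. With the replicate number as a block, an alternative fit, limma called 0 genes for cpdA against LPS and Csf1 had an adjusted p of 0.296. Limma with library quality weights and all 9 libraries called Il15 and Csf1 lower with DHA, where 14.8% of kept genes were called lower, and Csf1 lower with cpdA, where 1.88% were. Leaving out cpdA 3 alone, which enters the shared estimate of spread, took Csf1 with DHA past the threshold in limma (-0.54, adjusted p = 0.035), and the count over all genes from 1 to 373.

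Without LPS 3 and cpdA 3, Il6, Il15, Csf1 and Csf2 fell with DHA, 4 of 9 members where 4.04% of kept genes were called lower. In that limma fit the log2 change was -0.66 (SE 0.13, adjusted p = 0.0119) for Il6, -0.51 (SE 0.13, adjusted p = 0.0364) for Il15, -0.53 (SE 0.10, adjusted p = 0.0124) for Csf1 and -0.94 (SE 0.19, adjusted p = 0.0136) for Csf2. The other 5 did not pass: Tnf stood at -0.41, Osm at -0.37, Il10 at -1.26, Csf3 at -0.26 and Lif at 0.24, with adjusted p from 0.111 to 0.478. For Il6 and Csf2 the result rests on leaving out LPS 3, in which both genes were below every DHA library, whereas Il15 and Csf1 were above every DHA library in LPS 3. Leaving out LPS 3 alone, with cpdA 3 still in the shared estimate of spread, left the differences at -0.66 for Il6 and -0.94 for Csf2 and gave limma adjusted p of 0.915 and 0.771. With cpdA no member passed in the same fit, against 1.6% of kept genes in either direction, and 4 members had an unadjusted p under 0.05, against 11.7% of kept genes. Csf1 was at -0.39 (adjusted p = 0.148), Il6 at -0.49 (adjusted p = 0.136) and Il15 at -0.35 (adjusted p = 0.340), and the difference between compounds in calls is not itself a test of their difference. The plot of differences with and without the pair of libraries shows both fits.

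**Figure D2:**
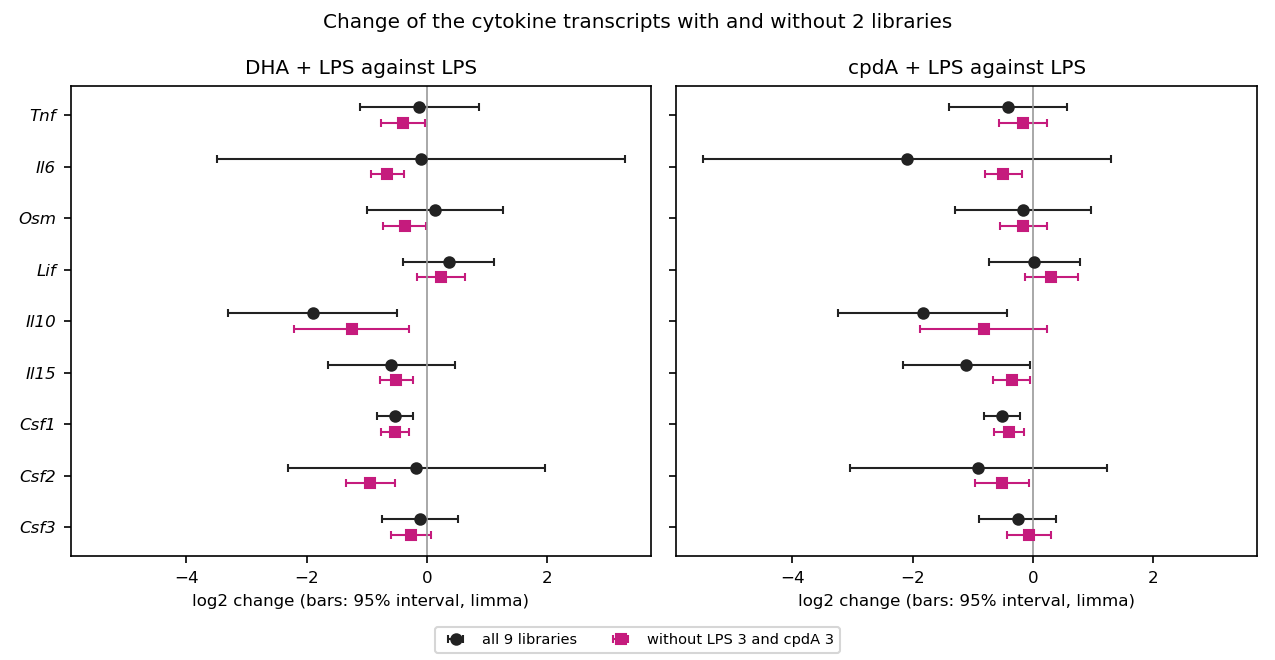
Log2 difference from LPS (x axis, log2(value + 1) scale, with 95% intervals from limma) of the 9 cytokine genes (y axis) for DHA and for cpdA, with all 9 libraries and without LPS 3 and cpdA 3. Csf1 lies between -0.54 and -0.39 with a narrow interval in each, and the interval of Il6 narrows most when the pair of libraries is left out.

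CpdA and DHA were given at different doses, 10 µM and 100 µM, so their values stand side by side and the direct difference compares these treatments only. It was tested for the 9 genes in the fit over all genes. No member passed (limma adjusted p from 0.9999 to 1), and no member's cpdA and DHA libraries were separated, against 2.61% of kept genes lower and 3.04% higher. The log2 difference of cpdA from DHA was 0.02 for Csf1, with a 95% interval from -0.28 to 0.33. For Tnf it was -0.28, with an interval from -1.27 to 0.70, and for Il6 it was -2.00, with a wide interval up to 1.39. These intervals do not show that the compounds act alike. With all 9 libraries the difference was negative for 7 of the 9 genes, with a median of -0.29. It was positive for 9 of the 9 without LPS 3 and cpdA 3, with a median of 0.20, where 54.3% of kept genes were positive with a median of 0.02, and none was called.

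For most of the 9 genes, cpdA 3 and LPS 3 lay far from the other libraries of their groups. In cpdA 3 each member was the lowest of its group, as were 44.7% of kept genes. As a share of the mean of cpdA 1 and 2, Il6 stood at 1.1%, Csf2 at 8.2%, Il15 at 24.8%, Tnf at 34.0%, Osm at 34.9%, Lif at 42.2%, Il10 at 43.0%, Csf3 at 49.9% and Csf1 at 78.3%. In LPS 3, 6 members were the lowest of their group, as were 41.6% of kept genes, from Csf2 at 20.0% and Il6 at 31.3% to Lif at 75.9% of the mean of LPS 1 and 2. Il10 went the other way there, at 387.8%, and Il15 stood at 119.0%. In DHA 3 the share lay between 87.8% and 120.4%, except for Il10 at 209.4%. DHA 2 was the lowest DHA library for 8 of 9 members, as for 39.4% of kept genes.

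**Figure D3:**
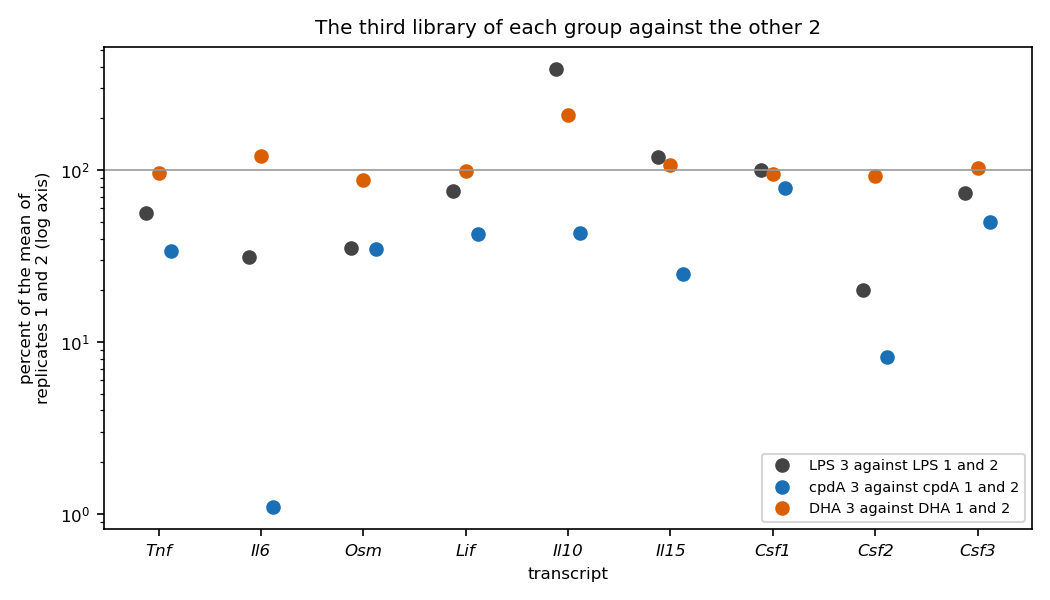
Level of each of the 9 cytokine genes in the library numbered 3 of each group, as a percentage of the mean of libraries 1 and 2 of that group (log axis). CpdA 3 runs from 1.1% for Il6 to 78.3% for Csf1, and LPS 3 from 20.0% for Csf2 to 387.8% for Il10.

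The receptors of these cytokines were described from a list of 16 genes, all kept. None passed the test with all 9 libraries, and 6 differences were positive and 10 negative with DHA and 7 and 9 with cpdA. Csf1r, the receptor of Csf1, lay opposite to its ligand: its normalized counts were 8155, 7819.9 and 7572 in LPS 1 to 3, 11449, 10839 and 10704 in DHA 1 to 3, and 11559, 10002 and 21816 in cpdA 1 to 3. All pretreated libraries were above all LPS libraries, with log2 differences of 0.49 (limma adjusted p = 0.402) and 0.79 (limma adjusted p = 0.240) for DHA and cpdA. Without LPS 3 and cpdA 3 it rose with DHA by 0.46 (limma adjusted p = 0.0146), where 2.75% of kept genes were called higher, and was at 0.43 with cpdA (adjusted p = 0.0694).

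Il10ra, the ligand-binding chain of the Il10 receptor, lay in the same direction as Il10. Its normalized counts were 5244, 5173 and 6522 in LPS 1 to 3, 3803, 3423 and 3715 in DHA 1 to 3, and 3854, 4023 and 2955 in cpdA 1 to 3, with no overlap with LPS. The log2 differences were -0.62 and -0.65 (limma adjusted p = 0.206 and 0.198). Without LPS 3 and cpdA 3 it fell with both, by 0.52 with DHA (limma adjusted p = 0.0041) and by 0.40 with cpdA (limma adjusted p = 0.0485). Il15ra, which presents Il15 to other cells, had normalized counts of 2373, 2138 and 4849 in LPS 1 to 3, 1737, 1297 and 1465 in DHA 1 to 3, and 1658, 1719 and 726.2 in cpdA 1 to 3. All pretreated libraries were below LPS, with log2 differences of -0.97 and -1.19 (limma adjusted p = 0.317 and 0.243). Its highest value was in LPS 3 and its lowest in cpdA 3, and without them the differences were -0.60 and -0.42.

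Il6ra, the ligand-binding chain for Il6, had 163.0, 149.8 and 151.4 normalized counts in LPS 1 to 3, 160.5, 541.3 and 339.4 in DHA 1 to 3, and 146.0, 144.3 and 250.8 in cpdA 1 to 3. DHA 2 and 3 were above all LPS libraries while DHA 1 overlapped them, and the log2 difference of 0.99 did not pass (limma adjusted p = 0.318). The shared chain Il6st was at 0.35 with DHA and 0.25 with cpdA, and Osmr, the Osm receptor, at -0.29 and -0.04. Of the TNF receptors, Tnfrsf1a stood at -0.38 with DHA and -0.43 with cpdA (-0.32 and -0.17 without LPS 3 and cpdA 3), and Tnfrsf1b at 0.00 and -0.02. Csf2rb, the signalling chain for Csf2, was at 0.09 and 0.07, and Csf3r at -0.47 and -0.61 (-0.39 and -0.28 without LPS 3 and cpdA 3). Without LPS 3 and cpdA 3, 5 of the 16 receptors passed with DHA: Il15ra, Csf3r and Il10ra fell and Il6st and Csf1r rose. With cpdA 1 of 16 passed, Il10ra. Over all kept genes 6.79% passed with DHA and 1.6% with cpdA in that fit.

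**Figure D4:**
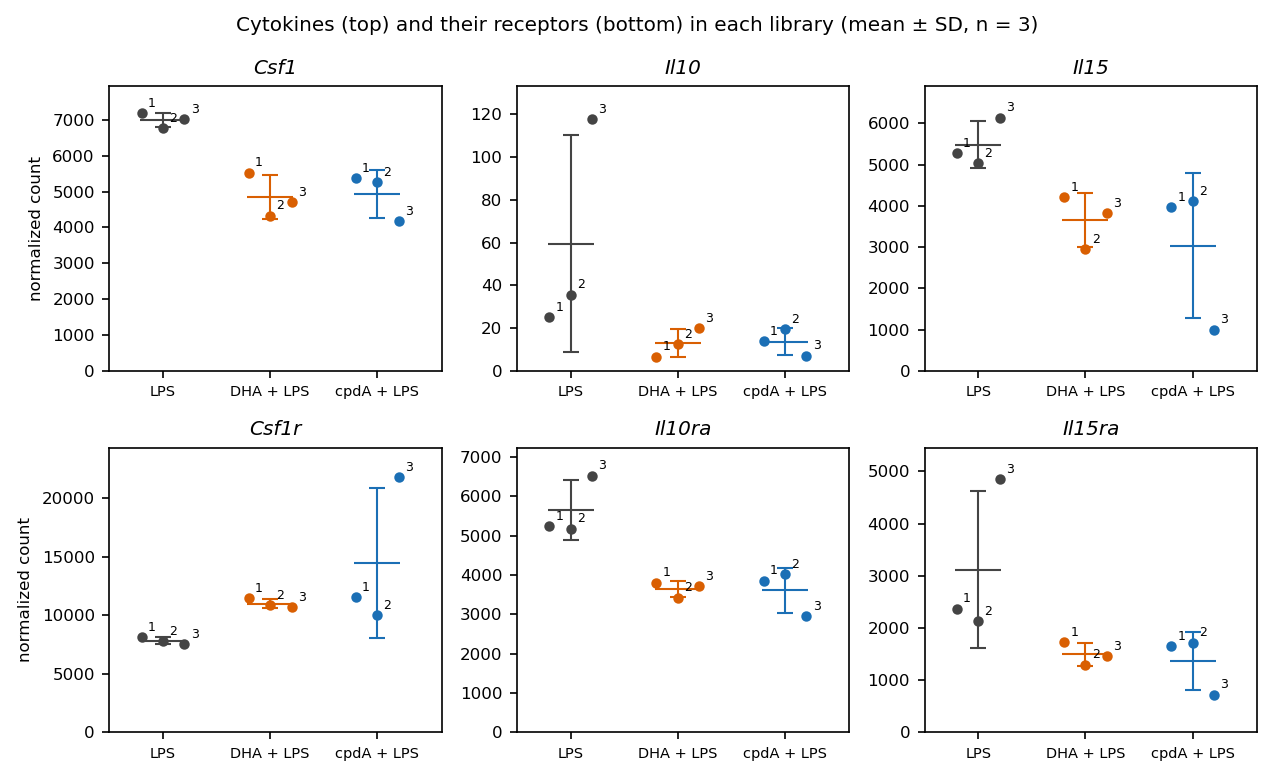
Normalized counts (y axis, linear, a separate scale for each gene) of Csf1, Il10 and Il15 (top) and Csf1r, Il10ra and Il15ra (bottom) in the 3 groups (x axis). Points are libraries marked by their replicate number, and bars give the mean ± SD of 3 libraries. Csf1r is higher in all 6 pretreated libraries than in the LPS libraries, and the other genes shown are lower.

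Downstream of the receptors, none of 10 JAK kinases and STAT factors passed with all 9 libraries, and 9 differences were negative with DHA and 10 with cpdA, with medians of -0.29 and -0.30. In the fit of 7 libraries 10 were negative with DHA and 6 with cpdA, with medians of -0.20 and -0.08. Stat3, the factor that Il6 and Il10 activate, had normalized counts of 8843, 8444 and 12992 in LPS 1 to 3, 7374, 6213 and 6987 in DHA 1 to 3, and 7608, 7813 and 4717 in cpdA 1 to 3. It did not overlap with LPS in either, with log2 differences of -0.53 and -0.60 (limma adjusted p = 0.341 and 0.286), and of -0.34 and -0.16 without LPS 3 and cpdA 3. Tyk2, a JAK family kinase, fell by 0.42 with DHA in the fit without LPS 3 and cpdA 3 (limma adjusted p = 0.0275). It was the only 1 of the 10 to pass there, where 6.79% of kept genes passed with DHA. Of 9 SOCS feedback genes and STAT targets none passed with all libraries, with 8 negative differences for DHA and 9 for cpdA. These were 8 and 5 without LPS 3 and cpdA 3, with a cpdA median of -0.04 in place of -0.32. Socs3, the feedback inhibitor of gp130 signalling, stood at -0.49 with DHA and -0.89 with cpdA (limma adjusted p = 0.679 and 0.447), and its libraries did not overlap with LPS. It stood at -0.50 and -0.17 without LPS 3 and cpdA 3. Cish, a feedback gene of STAT5, fell by 0.85 with DHA without LPS 3 and cpdA 3 (limma adjusted p = 0.00472). Among the 9 feedback genes and targets, Cish alone passed in that fit. Like Csf2 it was at its LPS low in LPS 3, with 289.6 against 1045 and 1037 in LPS 1 and 2, a value below every DHA library.

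Cytokine mRNAs are also controlled after transcription, and 15 genes that set their stability or release were listed and kept. None passed with all 9 libraries, and 10 differences were negative with DHA and 8 with cpdA, or 8 and 5 without LPS 3 and cpdA 3. Zfp36 (tristetraprolin), which promotes the decay of Tnf mRNA, was at -0.55 and -0.57 (limma adjusted p = 0.365 and 0.344), and at -0.31 and -0.10 without LPS 3 and cpdA 3. Zc3h12a (regnase-1), which degrades Il6 mRNA, was at -0.01 and -0.25. Adam17, the protease that releases Tnf from the cell surface, was at -0.01 and 0.07. Zfp36l2, a relative of Zfp36, had normalized counts of 3531, 3495 and 2252 in LPS 1 to 3, 4742, 5086 and 5130.4 in DHA 1 to 3, and 4953, 4928 and 5643 in cpdA 1 to 3. Its pretreated libraries were all above LPS, and without LPS 3 and cpdA 3 it rose with both, by 0.50 with DHA (limma adjusted p = 0.00397) and by 0.49 with cpdA (limma adjusted p = 0.0149). Arid5a, which stabilizes Il6 mRNA, fell by 0.58 with DHA in that fit (limma adjusted p = 0.0319). Of the 15 genes, only Zfp36l2 and Arid5a passed there with DHA and only Zfp36l2 with cpdA. Over all kept genes 6.79% passed with DHA and 1.6% with cpdA.

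Of 20 related ligands 13 had a row and 10 were kept, and none passed with all 9 libraries or without LPS 3 and cpdA 3. Of the 10 kept, 8 were negative with DHA and 9 with cpdA, or 7 and 7 without LPS 3 and cpdA 3. Il27 had 409.3 normalized counts in cpdA 3 against 5765 and 5243 in cpdA 1 and 2, so that it was low in the same library as Il6, and its log2 differences were -0.41 and -1.37 (limma adjusted p = 0.854 and 0.487), or -0.61 and -0.32 without LPS 3 and cpdA 3. Flt3l, a growth factor for dendritic cells, stood at -0.53 and -0.64 (limma adjusted p = 0.347 and 0.265), or -0.35 and -0.35 without them.

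For Tnf, Il6 and Il10 the 3 kept genes with the highest Pearson correlation over the 9 libraries were listed, as a description with no test, since the libraries share their treatment and LPS 3 and cpdA 3 stand apart. For Tnf these were Fabp3 (r = 0.996), Cap1 (0.996) and Plaur (0.993), the urokinase receptor, and r was 0.979, 0.986 and 0.959 over 7 libraries without LPS 3 and cpdA 3. For Il6 they were Gm14047 (0.998), Il1a (0.998) and Gm14023 (0.996). The gene Il1a encodes the cytokine interleukin-1 alpha, and it had 7939.9 normalized counts in cpdA 3 against 146907 and 152785 in cpdA 1 and 2. Over the 7 libraries these r values were 0.890, 0.877 and 0.789, so that part of the likeness to Il6 rests on LPS 3 and cpdA 3. Gm14023 overlaps Il1a in RefSeq, and without strand their reads cannot be told apart. For Il10 they were Tcp10b (0.988), Unc93a (0.981) and Tfpt (0.978), at 0.985, 0.944 and 0.949 over the 7 libraries. Unc93a was near the floor, at 4.5 to 33.8 normalized counts.

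Among the members themselves, 36 pairs were compared in the same way over the 9 libraries, as a description. The highest r were those of Tnf with Csf3 (0.976) and with Csf2 (0.975), and Tnf with Osm stood at 0.935. Csf1 and Csf2 correlated at 0.483 over 9 libraries and at 0.978 over the 7 without LPS 3 and cpdA 3, and Il15 with Csf1 at 0.789 and 0.957. Il6 with Lif went from 0.809 to -0.32, and Il10 with Tnf from 0.124 to 0.220. The pairs of Csf1, Csf2, Il6 and Il15, the genes called lower with DHA over the same 7 libraries, stood between 0.891 and 0.978 there. That set was picked by its fall with DHA in those libraries, so high r among its pairs follows in part from the choice. Pairs outside this set also stood in that range, among them Tnf with Osm at 0.977, with Csf3 at 0.939 and with Il15 at 0.904. Each value depends on few libraries in 3 treatments.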

How the data were processed

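RNA was measured in 9 libraries, with groups from the titles. Values are a signal, the read counts of each gene that the authors divided by 1 size factor for the library, as the deposited values show. CASAVA 1.8.2, Bowtie2, DESeq and mm9 are named per the submitters' processing notes. For the counting program, the annotation and strand, the sources used here give nothing. The labels' growth and extraction protocols concern another experiment (neural stem cells, histone-bound DNA) and were not used. Between 99.92% and 100% of values per library were whole reads within 0.05. Genes with a value of at least 10 in at least 3 of 9 libraries (13895) were fitted on the log2(value + 1) scale with 1 mean per group over all 9 libraries, using limma 3.58.1 with trend and robust options (R 4.3.3, statmod 1.5.0). That scale understates the changes of low genes. Adjusted p-values are Benjamini-Hochberg over all kept genes, threshold 0.05. Recovered reads, rounded to whole numbers, were tested with edgeR 4.0.16 and DESeq2 1.42.0 as alternatives, beside other pseudocounts, filters, scalings, library weights, a replicate block and libraries left out. The members, the lists, the rule for named genes (members, the listed receptors and pathway genes described, and for Tnf, Il6 and Il10 the 3 genes of highest Pearson correlation) and the fit without LPS 3 and cpdA 3 were chosen with earlier results of these data known. Zfp36l2, Cish, Tyk2 and Arid5a were named because they passed in that fit. Deviations from the group mean in same-number libraries of LPS and cpdA correlated across genes at 0.387, 0.234 and 0.436. Unlike numbers 1 and 2 correlated at 0.2919 and 0.2645, and number 3 with 1 or 2 at -0.432 to -0.306. Pairs by number thus cannot be told apart from number 3 standing apart in both groups. The block was used only as an alternative fit. The numbers come from the titles, which do not say what they mark, and for DHA with LPS the same-number correlations were 0.140, -0.065 and 0.020. Exon lengths are from GENCODE M21 and promoters from RefSeq GRCm38.p6, which is not the files' build, so no position in the files was used.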

Additional observations from a re-analysis of the deposited data

How the results depend on the processing

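The 1559 recomputed log2 differences cover all 3 comparisons for members, but for pathway genes only those with LPS. Of these, 1410 kept their sign and their side of the threshold, 47 passed it only under an alternative and 102 changed sign. The differences of pathway genes between cpdA and DHA are outside these counts. Their signs changed in 0 (as for Il6ra) to 7 (Zfp36) of 22 settings. No sign changed for Il10, Il15 or Csf1 against LPS or for Lif with DHA. The cause of the sign changes was not tested. The 3 libraries per group and the few reads of Il10 and Csf2 limit precision. Genes called with DHA numbered 1 with all 9 libraries, 3 with a minimum value of 50, with TMM or with edgeR, 0 without limma's trend and robust options or with the replicate block, 9 with only the 6 libraries compared, 315 with DESeq2, 4303 with library quality weights, 943 without LPS 3 and cpdA 3, and 0 to 373 with 1 library left out (373 without cpdA 3). With cpdA they numbered 1, then 0 without trend and robust options, with the replicate block or with 6 libraries, 391 with DESeq2, 563 with weights, 222 without LPS 3 and cpdA 3 and 0 to 3 with 1 library left out. Between cpdA and DHA no setting called a gene (142 at an unadjusted limma p under 0.05, 157 by edgeR and 145 by DESeq2). The block moved no call of a named gene, and cpdA against DHA had same-number correlations of 0.407, -0.345 and 0.013. Csf1 was called with DHA in 4 of 22 settings (-0.63 to -0.41) and with cpdA in 2 (-0.58 to -0.36), Il15 with DHA in 2 (-0.70 to -0.45) and Il10 in none (-2.35 to -0.75).

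Signs changed with DHA against LPS under quantile normalization for Tnf (0.028), Il6 (0.039), Zc3h12a (0.088) and Adam17 (0.14). Under TMM they changed for Zc3h12a (0.0016) and Adam17 (0.0007), and for Zc3h12a with edgeR (0.0075) and DESeq2 (0.0058). With cpdA against LPS they changed under quantile normalization for Lif (-0.016) and Tnfrsf1b (0.19), and for Tnfrsf1b with edgeR (0.012) and DESeq2 (0.0091). With edgeR the difference of Il10 between cpdA and DHA was -0.019. Library quality weights gave -0.39 for Osm, -0.13 for Tnfrsf1b and -0.078 for Csf2rb with DHA, and 0.083 for Tnfrsf1b, -0.084 for Il6ra, 0.093 for Osmr, 0.087 for Bcl3 and 0.045 for Zc3h12a with cpdA. Between cpdA and DHA they gave 0.20 for Tnf, -0.19 for Il10, 0.023 for Il15, 0.043 for Lif, 0.26 for Osm, 0.34 for Csf2 and 0.15 for Csf3. Without LPS 3 and cpdA 3 the changed values were -0.37 for Osm, -0.12 for Tnfrsf1b, 0.0024 for Osmr and -0.066 for Csf2rb with DHA, and 0.093 for Tnfrsf1b, -0.11 for Il6ra, 0.16 for Osmr, 0.11 for Bcl3 and 0.087 for Zc3h12a with cpdA. Between cpdA and DHA they were 0.24 for Tnf, 0.17 for Il6, 0.16 for Il15, 0.071 for Lif, 0.21 for Osm, 0.43 for Csf2 and 0.20 for Csf3.

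With 1 library left out in turn, the DHA difference ranged from -0.41 to 0.041 for Tnf, -0.66 to 0.19 for Il6, -0.37 to 0.38 for Osm, -0.94 to 0.22 for Csf2 and -0.26 to 0.027 for Csf3. It ranged from -0.13 to 0.13 for Tnfrsf1b, -0.46 to 0.0024 for Osmr, -0.066 to 0.18 for Csf2rb, -0.19 to 0.15 for Zc3h12a, -0.14 to 0.082 for Adam17 and -0.85 to 0.073 for Cish. The cpdA difference ranged from -0.72 to 0.11 for Tnf, -3.25 to 0.067 for Il6, -0.23 to 0.43 for Lif, -0.66 to 0.34 for Osm, -1.67 to 0.25 for Csf2 and -0.47 to 0.079 for Csf3. For the pathway genes it ranged from -0.17 to 0.22 for Tnfrsf1b, -0.091 to 0.31 for Il6ra, -0.21 to 0.25 for Osmr, -0.086 to 0.20 for Csf2rb, -0.12 to 0.027 for Bcl3, -0.56 to 0.25 for Zc3h12a and -0.065 to 0.14 for Adam17. The cpdA minus DHA difference ranged from -0.59 to 0.24 for Tnf, -3.15 to 0.17 for Il6, -0.30 to 0.44 for Il10, -0.86 to 0.16 for Il15, -0.60 to 0.071 for Lif, -0.60 to 0.21 for Osm, -0.055 to 0.14 for Csf1, -1.32 to 0.43 for Csf2 and -0.35 to 0.20 for Csf3. The positive cpdA values of Tnf, Il6, Csf2 and Csf3 came from leaving out cpdA 3, those of Osm from leaving out cpdA 3 (0.34), LPS 1 (0.091) or LPS 2 (0.088). Leaving out cpdA 3 also gave those between cpdA and DHA of Tnf, Il6, Il15, Lif, Osm, Csf2 and Csf3.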
